A study of Rattus norvegicus with 10 samples.

Results

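Expression of 8 genes that act at the excitatory synapse, or switch on there with activity, was examined in the hippocampus of rats with epilepsy induced by stimulation of the amygdala. The genes were Arc, Homer1, Homer2, Homer3, Npas4, Nptx1, Nptx2 and Nptxr. They were taken by name: the RefSeq transcript of each row of the count matrix was matched to its rat gene symbol, and the row of highest mean count was kept. Each gene had exactly 1 row, so 8 of 32041 rows were followed, and all 8 were among the 22447 rows with enough counts to be tested.

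All 10 animals were male Sprague-Dawley rats, an outbred strain, of 290 to 320 g at the start and housed singly after surgery, and all carried an electrode in the left lateral amygdala. The 5 sham operated rats (rats 1 to 5) received no current. The 5 rats of the amygdala stimulation group (rats 6 to 10) received 400 µA pulses at 60 Hz for 30 min, prolonged by 10 min where needed, to evoke status epilepticus, a seizure that does not stop on its own and that was ended with diazepam. The left hippocampus, labelled dorsal hippocampus, was taken 3 months later and a piece with CA3 and the dentate gyrus was used, and sham rats were matched for age. No age was used here beyond this matching, and neither was the number of seizures of each rat or the time between the last seizure and death.

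Several of these genes belong to the response of a neuron to its own firing. Npas4 is a transcription factor that is induced by calcium entry. Arc is an immediate early gene whose protein drives removal of AMPA receptors, the main fast glutamate receptors, from synapses. Homer proteins are scaffolds that tie metabotropic glutamate receptors to calcium stores and to Shank proteins. Homer1 also gives a short form, induced by activity, that breaks these links. Neuronal pentraxins are secreted or membrane-bound proteins that cluster AMPA receptors. Nptx2, also called Narp, is the member induced by activity, Nptx1 is its constitutive partner, and Nptxr is the membrane-bound pentraxin that joins both in 1 complex. The counts hold a single row for Homer1, so its short and long forms could not be separated here.

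The libraries held between 13552309 and 24086059 aligned counts. Between 32.0% and 45.1% of reads were unaligned and between 1.82% and 12.2% of aligned counts fell on ribosomal RNA records. The unaligned share was 41.4%, 42.9% and 45.1% in rats 8, 9 and 10, above the sham maximum of 37.1%, and 32.0% in rat 7, below all sham rats, and its part in the results was not tested. The labels gave no sequencing batch. Counts were scaled to CPM (counts relative to the library total, adjusted by the trimmed mean method), and log2 CPM was computed with a prior count of 2. Markers of neurons (5 of 5), CA3 pyramidal cells (4 of 4) and interneurons (5 of 5) and 3 of 5 markers of dentate granule cells were matched to tested rows and detected. CA1 markers were detected too, at a summed 119.1 to 199.9 CPM in sham and 51.8 to 225.9 CPM in stimulated rats, as were markers of astrocytes, microglia and oligodendrocytes. The 5 endothelial markers had a mean log2 CPM of 4.06 to 4.22 in sham and 4.31 to 5.12 in stimulated rats, without overlap, and 3 of them were higher at an unadjusted p under 0.05. Their part in the results was not tested. Choroid plexus markers were at most 26.1 CPM in sum. Of 10 other immediate early genes, 9 were higher in stimulated rats at an unadjusted p under 0.05. In edgeR's quasi-likelihood test, which also gave the endothelial calls, 6.7% of all tested rows were higher at this level. None had an adjusted p under 0.05. The mean log2 CPM of the 10 immediate early genes was between 3.29 and 3.60 in sham rats. It was 3.58, 5.77, 3.11, 5.84 and 5.30 in rats 6 to 10. Fos, a classical marker of recent neuronal activity, was counted at 5.61, 106.3, 5.24, 50.3 and 61.7 CPM in these 5 rats, beside 3.26 to 5.32 CPM in sham rats.

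**Figure D1:**
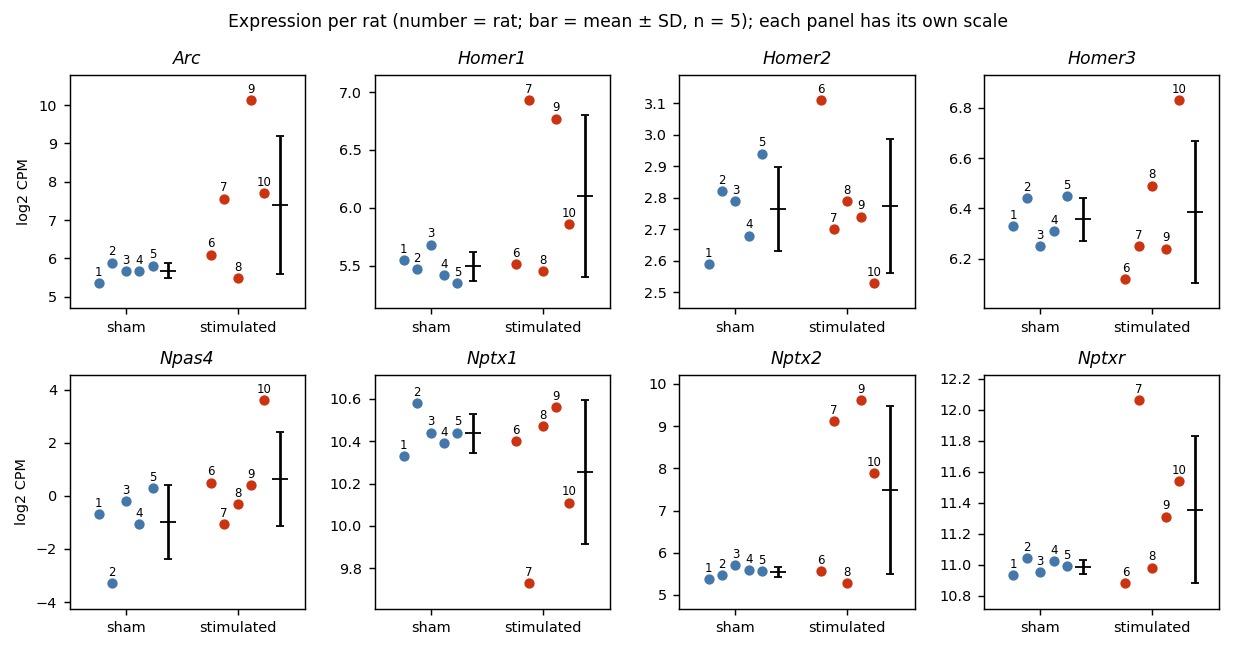
Expression of the 8 genes in each rat, as log2 CPM on a separate scale per panel, with sham rats in blue and stimulated rats in red, rat numbers above the points, and the mean and SD of 5 rats beside each group. For Arc, Nptx2 and Nptxr the sham rats lie close together while stimulated rats 7, 9 and 10 lie above them, and Npas4 stands out in rat 10 alone.

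The first question was which of the 8 genes differed between stimulated and sham rats. In edgeR's quasi-likelihood test, fitted on all tested rows, 0 of 8 genes had an adjusted p-value under 0.05, as did 0% of all rows. Arc and Nptx2 passed this threshold in edgeR's likelihood ratio test and in its exact negative binomial test, with adjusted p-values of 0.0209 and 0.0113 in the former and 0.026 and 0.0136 in the latter. An unadjusted p-value under 0.05 was found for 5 genes, all higher in stimulated rats, where 6.7% of all rows were higher and 3.16% lower at this level (1505 and 709 rows, or 1725 and 477 with scaling by library size alone). Without rat 6 the counts were 1858 and 1287, and without rat 8 they were 1793 and 1241. These 5 were Arc, Homer1, Npas4, Nptx2 and Nptxr. At the cut-off of the study, an unadjusted p-value under 0.001, 1 gene (Nptx2) was higher in the quasi-likelihood test, where 0.156% of all rows were. This held without rat 6 or rat 8, where Arc passed as well, and in no fit that omitted any of the other 8 rats, in which the unadjusted p of Nptx2 reached 0.00299 at most. The study, by its methods with edgeR's negative binomial model and 4 stimulated rats, listed both Arc and Nptx2 as upregulated at this cut-off. The median log2 fold change was 0.59 over the 8 genes and 0.012 over all tested rows. No gene had stimulated rats that were all above the sham rats, while 0.695% of all rows did. No gene had them all below either, a direction for which the share over all rows is not given here.

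**Figure D2:**
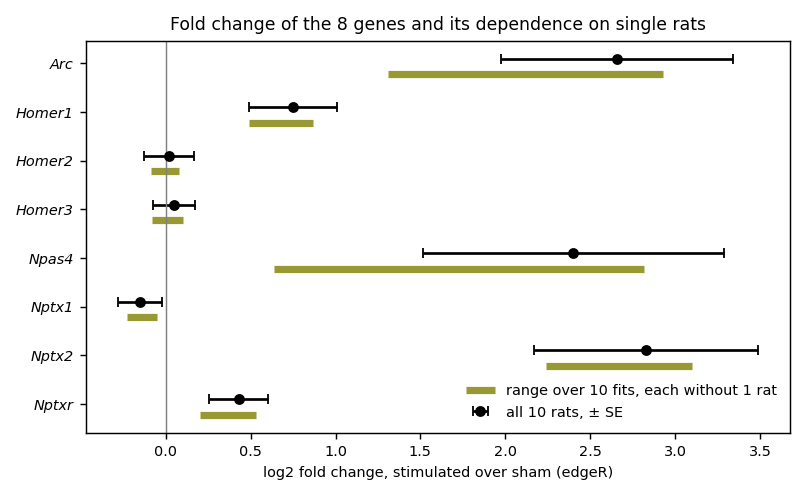
Log2 fold change of the 8 genes, stimulated over sham, with its SE (black) and the range over 10 fits that each left out 1 rat (olive). The values of Homer2 and Homer3 lie at 0, and those of Arc and Npas4 reach down to 1.31 and 0.64 when a single rat is omitted.

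Arc (NM_019361) was counted at 41.0, 59.1, 50.8, 50.4 and 55.9 CPM in sham rats 1 to 5. In stimulated rats 6 to 10 it was counted at 68.3, 188.2, 44.4, 1117.7 and 207.7 CPM. Rats 6, 7, 9 and 10 were above all sham rats and rat 8 lay within the sham range, so that the groups overlapped by 1 rat. The log2 fold change was 2.66 (SE 0.684, adjusted p = 0.376, edgeR quasi-likelihood test). An exact permutation test of log2 CPM over all assignments of the rats, two-sided and added after the data were seen, gave p = 0.0476. Rat 9 alone held 68.7% of the summed Arc CPM of the stimulated rats. Without it the log2 fold change was 1.31, and without rat 8, where the groups did not overlap, it was 2.93. In bulk tissue a change in the number of cells that express a gene and a change in the RNA of each cell cannot be told apart.

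Npas4 (NM_153626) was a rare transcript here. Sham rats 1 to 5 had 9, 0, 14, 9 and 27 counts, and stimulated rats 6 to 10 had 29, 8, 11, 24 and 231 counts. In CPM the sham rats reached 1.13 at most, and a count of 0 in rat 2 allows up to 0.229 CPM by a floor of 3 counts (the exact 95% Poisson interval ends at 0.282 CPM). Rat 10 was counted at 11.9 CPM (exact 95% Poisson interval 10.4 to 13.6, for counting error only), and the other stimulated rats at 0.371 to 1.31 CPM. Rat 10 carried 76.8% of the summed Npas4 CPM of its group. Rat 7, which had the highest Fos, had 0.371 CPM of Npas4 (0.16 to 0.732), inside the sham range. The log2 fold change was 2.40 (SE 0.887, adjusted p = 0.42, edgeR quasi-likelihood test). It was 0.64 without rat 10, with an unadjusted p of 0.318 in the same test, and thus rested on that rat.

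The 3 Homer genes differed from one another in their pattern. Homer1 (NM_031707) was counted at 46.9, 44.3, 51.2, 42.6 and 40.6 CPM in sham rats 1 to 5 and at 45.5, 121.5, 43.6, 109 and 58.2 CPM in stimulated rats 6 to 10. Rats 7 and 9 were about equally high, rat 10 was just above the highest sham rat, and rats 6 and 8 were within the sham range. Its log2 fold change was 0.75 (SE 0.257, adjusted p = 0.411, edgeR quasi-likelihood test), and 0.49 without rat 7. Homer2 (NM_053309) averaged 6.72 ± 0.629 CPM over the sham group and 6.80 ± 1.05 CPM over the stimulated group (SD, n = 5). Its log2 fold change of 0.02 had an interval of -0.27 to 0.31 (plus and minus 2 SE). Homer3 (NM_053310) averaged 81.9 ± 4.96 CPM over the sham group and 84.8 ± 17.6 CPM over the stimulated group (SD, n = 5), and its log2 fold change of 0.05 had an interval of -0.20 to 0.30. For these 2 genes the group means did not differ beyond the spread of the rats. In stimulated rats 6 to 10 Homer2 was counted at 8.51, 6.41, 6.83, 6.58 and 5.68 CPM, against 5.93 to 7.59 CPM in sham rats. Homer3 was counted at 69.5, 76.2, 89.7, 75.3 and 113.5 CPM in these rats, against 75.9 to 87.4 CPM in sham rats. Rats 8 and 10 were above all sham rats for Homer3, and rats 6 and 9 were below all of them. Rat 10 held the highest Homer3, 113.5 CPM, and rat 6 the highest Homer2, 8.51 CPM. Homer1 was 58.2 CPM in the former and 45.5 CPM in the latter.

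The make-up of the Homer counts was compared as a share of the counts of the 3 genes, which is not corrected for transcript length and is therefore read only between rats. Homer1 took 33.7% ± 3.16 in sham rats (SD, n = 5), with a range of 29.9 to 38.2%. In stimulated rats 6 to 10 its share was 36.8%, 59.5%, 31.1%, 57.1% and 32.8%, and the 95% Wilson interval was 58.1 to 61.0% in rat 7 and 55.5 to 58.7% in rat 9. In rats 7 and 9 the share of Homer1 was thus above that of each of the other 8 rats.

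Of the neuronal pentraxins, Nptx2 (NM_001034199) varied most between rats. It was counted at 41.5, 44.7, 52.0, 48.0 and 47.0 CPM in sham rats 1 to 5 and at 47.5, 557.9, 38.6, 783.5 and 235.1 CPM in stimulated rats 6 to 10. Rat 6 lay within the sham range and rat 8 below it, and the remaining 3 rats exceeded the sham mean 12.0, 16.8 and 5.04 times (rats 7, 9 and 10). The log2 fold change was 2.83 (SE 0.661, adjusted p = 0.376, edgeR quasi-likelihood test), from 2.24 without rat 9 to 3.10 without rat 6 or rat 8. The SD of log2 CPM was 0.121 in sham and 1.99 in stimulated rats, and the exact permutation test, which compares means, gave p = 0.143 (two-sided).

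Nptxr (NM_030841) was counted at 1956.8, 2101.6, 1977.5, 2070.3 and 2038.8 CPM in sham rats 1 to 5, a coefficient of variation of 3.01%. In stimulated rats 6 to 10 it was counted at 1890.8, 4280.1, 2022.3, 2539.1 and 2978.9 CPM. The same 3 rats, 7, 9 and 10, were above all sham rats, by 2.11, 1.25 and 1.47 times the sham mean, and rat 6 was below all of them. The log2 fold change was 0.43 (SE 0.175, adjusted p = 0.446, edgeR quasi-likelihood test) and 0.20 without rat 7. The unadjusted p-value of this test was above 0.05 in 4 of the 10 fits that left out 1 rat.

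Nptx1 (NM_153735) did not follow its partners. It was counted at 1287.6 to 1535.0 CPM in sham rats and at 1353.8, 850.0, 1421.9, 1509.4 and 1107.7 CPM in stimulated rats 6 to 10. Rats 7 and 10 were below all sham rats, while rats 6, 8 and 9 were within the sham range. Its log2 fold change of -0.15 (SE 0.13, adjusted p = 0.72, edgeR quasi-likelihood test) had an interval of -0.41 to 0.11 (plus and minus 2 SE). In rat 7 the lowest Nptx1 of all rats stood beside the highest Nptxr. Markers of cell types also differed in these rats. The mean log2 CPM of the 3 dentate granule cell markers was 5.56 in rat 7 and 5.64 in rat 10, below the sham range of 5.98 to 6.38, and 6.66 in rat 9, above it. The low means came with a different marker in each rat, C1ql2 at 44.8 CPM in rat 7 (140 to 165 CPM in sham rats) and Calb1 at 38.2 CPM in rat 10 (66.8 to 102 CPM in sham rats). That of the 3 CA1 markers was 4.39 and 3.43, against 4.42 to 5.13 in sham rats. The mean log2 CPM of 5 astrocyte markers was 7.92 to 8.20 in sham and 8.08 to 8.52 in stimulated rats, and 3 of the 5 were higher at an unadjusted p under 0.05. Their summed level was 2386 to 2953 CPM and 2425 to 7668 CPM, respectively, in which Gfap, the intermediate filament of astrocytes, reached 6470 CPM in rat 7 and 5400 CPM in rat 10 against 1330 to 1930 CPM in sham rats. Another of the 5, Aldh1l1, was below the sham range of 40.5 to 50.9 CPM in these rats, at 16.4 and 29.3 CPM. Neuron markers had a mean log2 CPM of 8.63 in rat 10 (8.77 to 8.99 in sham rats). In rat 7 oligodendrocyte markers had 7.91 (8.25 to 8.77 in sham rats) and microglia markers 5.33 (4.74 to 5.15). Interneuron markers had 5.64 in rat 7 and 5.99 in rat 10, against 5.74 to 5.89 in sham rats. Those of CA3 pyramidal cells lay within the sham range in rats 7 and 10. The part of these markers in the values of Nptx1 was not tested.

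**Figure D3:**
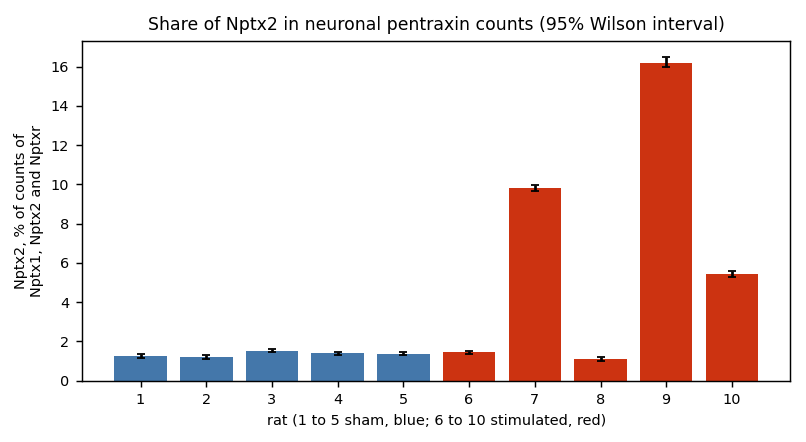
Share of Nptx2 in the counts of Nptx1, Nptx2 and Nptxr in each rat, in percent, with its 95% Wilson interval (counting error only), with sham rats 1 to 5 in blue and stimulated rats 6 to 10 in red. The bars of rats 7, 9 and 10 stand at 9.81%, 16.2% and 5.44%, and all others at or below 1.52%.

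The make-up of the pentraxin counts differed between rats. Nptx2 took 1.35% ± 0.121 of the counts of the 3 genes in sham rats (SD, n = 5) and 1.44%, 9.81%, 1.11%, 16.2% and 5.44% in stimulated rats 6 to 10. The interval of rat 9 was 16.0 to 16.5% and that of rat 8 was 1.02 to 1.20%. Nptx1 took 38.8 to 41.7% in sham rats and as little as 14.9% in a stimulated rat, and Nptxr took 57.1 to 59.9% in sham and 52.5 to 75.2% in stimulated rats. The summed CPM of the 3 genes was 3285.8 to 3681.3 in sham rats and 3292.1, 5688.0, 3482.9, 4832.0 and 4321.8 in rats 6 to 10. As with Homer genes, these shares are not corrected for transcript length.

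The stretch before the start of transcription was read for 4 of the 8 genes (Homer1, Homer3, Npas4 and Nptx2), which had an entry in the RefSeq promoter table of the GRCr8 build. It is shown for the 3 of these genes that were higher in stimulated rats at an unadjusted p under 0.05, as the 250 bases before the recorded start, in the direction of transcription. Capitals mark the motifs found. The positions are chr12:15162046-15162295 (minus strand) for Nptx2, chr1:211716103-211716352 (minus strand) for Npas4 and chr2:26278762-26279011 (plus strand) for Homer1.
Nptx2: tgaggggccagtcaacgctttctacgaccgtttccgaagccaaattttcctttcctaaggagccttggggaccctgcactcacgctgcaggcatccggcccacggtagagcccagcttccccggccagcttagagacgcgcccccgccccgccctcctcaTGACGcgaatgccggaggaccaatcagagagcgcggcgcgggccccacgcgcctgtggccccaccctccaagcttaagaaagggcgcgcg
Npas4: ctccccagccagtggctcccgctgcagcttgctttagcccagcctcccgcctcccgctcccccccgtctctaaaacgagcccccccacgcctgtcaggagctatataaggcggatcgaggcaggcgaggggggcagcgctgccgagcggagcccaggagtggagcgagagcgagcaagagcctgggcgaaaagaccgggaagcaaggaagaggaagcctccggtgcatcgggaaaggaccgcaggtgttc
Homer1: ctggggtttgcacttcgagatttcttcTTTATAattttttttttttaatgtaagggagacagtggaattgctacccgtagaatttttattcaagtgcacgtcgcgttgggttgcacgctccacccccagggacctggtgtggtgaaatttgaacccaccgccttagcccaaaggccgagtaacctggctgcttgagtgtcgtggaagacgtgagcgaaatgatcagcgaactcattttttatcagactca

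These stretches were searched on both strands for the cAMP response element TGACGTCA, its half-site TGACG, which the full element contains, the AP-1 site TGANTCA, the E-box CACGTG, the TATA box letters TATAAA and the serum response (CArG) element. The Nptx2 stretch held 1 half-site, at positions -90 to -86 from the start, which 18.2% of all 33469 promoter stretches also hold. The Homer1 stretch held 1 match to the TATA box letters on the opposite strand, at positions -223 to -218, as do 12.9% of all stretches on either strand. No match to these motifs was found in the windows of Npas4 and Homer3. The TATA box was searched as the exact letters TATAAA, so the related letters tatataag in the Npas4 stretch were not counted. The full cAMP element and the AP-1 site, present in 1.59% and 6.34% of all stretches, were found in none of the 4 windows. The Nptx2 and Npas4 stretches were rich in G and C, at 66% and 66.8% against a median of 51.2% over all stretches. They held 24 and 19 CpG dinucleotides, where the median was 5 and 10.9% of stretches held at least as many as Nptx2. Homer1 had 12 CpG and a GC content of 46.4%, and Homer3 had 4 CpG and 55.2%. A match is a description of letters and not of a bound site.

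**Figure D4:**
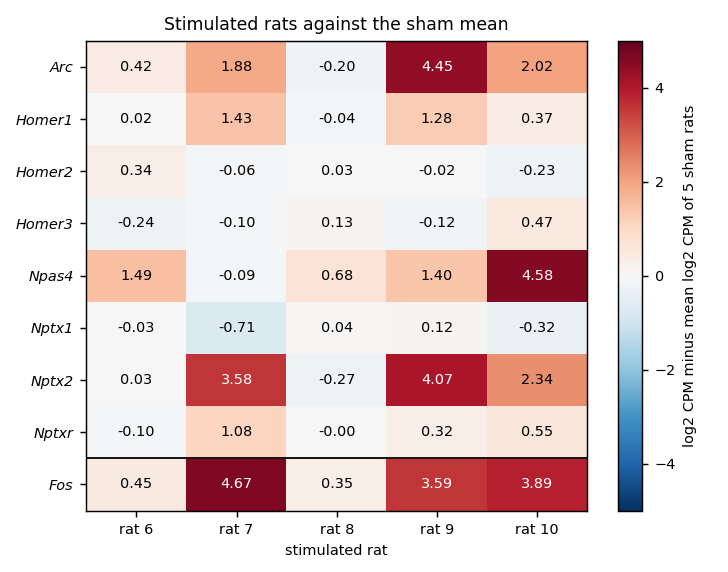
Difference between the log2 CPM of each stimulated rat and the mean of 5 sham rats, for the 8 genes and, below the line, Fos. The largest values lie in different rats for different genes: 4.45 for Arc and 4.07 for Nptx2 in rat 9, 4.58 for Npas4 in rat 10 and 4.67 for Fos in rat 7.

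The stimulated rats were then compared gene by gene with the sham range. Rat 8 was within it for 6 of 8 genes and exceeded it for Homer3 alone. Rat 6 exceeded it for Arc, Homer2 and Npas4, and only slightly. Rat 7 exceeded it for 4 genes (Arc, Homer1, Nptx2 and Nptxr), rat 9 for 5 (these and Npas4) and rat 10 for 6 (these 5 and Homer3). Each stimulated rat also had values below all sham rats. These were Homer3 and Nptxr in rat 6, Nptx1 in rat 7 and Nptx2 in rat 8. In rat 9 this was Homer3, and in rat 10 Homer2 and Nptx1, so that rat 10 had 0 of 8 genes within the sham range. The 3 highest stimulated rats were rats 7, 9 and 10 for 4 of the 8 genes: Arc, Homer1, Nptx2 and Nptxr. The shares of all rows outside the sham range in each rat, or with these 3 rats highest, were not determined. These counts are therefore not shown to be particular to the 8 genes.

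Within these 3 rats the order of the genes was not the same. In rat 9, CPM over the sham mean was highest for Arc, 21.7 times, followed by Nptx2 at 16.8 times and Fos at 12.2 times. In rat 7 it was 25.8 times for Fos and 12.0 times for Nptx2, but 3.66 times for Arc. Rat 10 had 21.4 times the sham mean for Npas4 and 15.0 times for Fos, with 5.04 times for Nptx2 and 4.04 times for Arc. Rats 7 and 10 thus had nearly the same relative level of Arc, while the level of Homer1 was 2.69 times the sham mean in rat 7 and 1.29 times in rat 10. Each of these values comes from 1 animal, and no test between single rats was possible.

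The spread of log2 CPM was larger in stimulated than in sham rats for each of the 8 genes. The ratio of the SDs was 16.4 for Nptx2, 10.9 for Nptxr, 8.94 for Arc and 5.43 for Homer1. It was 3.59 for Nptx1, 3.22 for Homer3 and 1.58 for Homer2. For Npas4 it was 1.28, and with a prior count of 0.5 in place of 2 it became 0.851. Without rat 2, which had 0 counts, it became 2.99. Without rat 1 the ratio of Arc became 16.2 and without rat 9 it became 5.44. Without rat 6 the ratio of Homer2 became 0.856, and without rat 10 that of Npas4 became 0.531 and that of Homer3 1.77. The ratio of Nptx1 became 6.44 without rat 2 and 2.06 without rat 7, and that of Nptxr became 6.94 without rat 7 and 5.40 with scaling by library size alone. Fos had a ratio of 8.21, and the partner genes described below had ratios from 0.467 (Wasf1) to 8.0 (Bdnf). The share of all rows with a wider spread in stimulated rats was not determined. A wider spread is therefore not shown to be particular to the 8 genes.

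The features whose pattern over the 10 rats was most like that of 4 of the genes were sought by Pearson correlation of log2 CPM among rows with a symbol and a mean count of at least 50. These correlations are descriptions, over 10 points that share depth and scaling. For Arc, Homer1 and Nptx2 they are carried by the few rats with high values. For Nptx2 the 5 nearest rows were 4 transcript records of Bdnf, which as records of 1 gene may share reads, and Plk2, with r between 0.991 and 0.993 (Spearman rho 0.745 to 0.903). Bdnf encodes a neurotrophin induced by activity and Plk2 a kinase of dendritic spines. For Arc they were Zyx, Pcdh8, Tor1aip2, Fosl2 and Klf10, with r between 0.975 and 0.984 (rho 0.673 to 0.891). Pcdh8, an activity-regulated protocadherin, was counted at 1090 CPM in rat 9, 347 CPM in rat 7 and 285 CPM in rat 10 against 115 to 141 CPM in sham rats. For Homer1 they were Ddhd1, Trim9, Cry1, Errfi1 and Rgs4, with r between 0.977 and 0.982 (rho 0.758 to 0.867). Rgs4, a brake on G protein signalling, was counted at 172 and 169 CPM in rats 7 and 9 and at 23.6 to 36.6 CPM in sham rats. For Npas4 they were Pigh, Inpp4b, Sdc2, Elovl1 and Slfn5, with r between 0.876 and 0.967 (rho 0.733 to 0.952). The counts of these last genes differed far less between rats, as in Pigh with 20.3 CPM in rat 10 and 11.3 to 15.9 CPM in sham rats. All 5 were lowest of the 10 rats in sham rat 2, which had 0 counts of Npas4. Their likeness to Npas4 thus rests in part on that rat, whose log2 CPM of -3.29 depends on the prior count.

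Among the 8 genes themselves, r over the 10 rats was 0.95 between Homer1 and Nptx2 (Spearman rho 0.709). It was 0.934 between Arc and Nptx2 (rho 0.782) and 0.828 between Nptx2 and Nptxr (rho 0.612). Npas4 had an r of 0.362 with Arc and 0.318 with Nptx2, and Nptx1 had -0.848 with Nptxr. The Spearman rho of this last pair was -0.152, far from its r.

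It was then asked whether binding partners and regulators of these proteins differed as well. Of a list of 38 such genes, 36 were matched to tested rows. Of these, 3 were higher and 1 was lower in stimulated rats at an unadjusted p under 0.05, near the 6.7% and 3.16% of all rows, and 0 had an adjusted p under 0.05 in edgeR's quasi-likelihood test. Their median log2 fold change was -0.024, against 0.012 for all rows. By role, 1 of 10 Homer partners, 0 of 11 partners and regulators of Arc, 1 of 3 partners and targets of Npas4, 1 of 6 partners of the pentraxins and 1 of 6 genes of signalling from synapse to nucleus were among the 4.

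**Figure D5:**
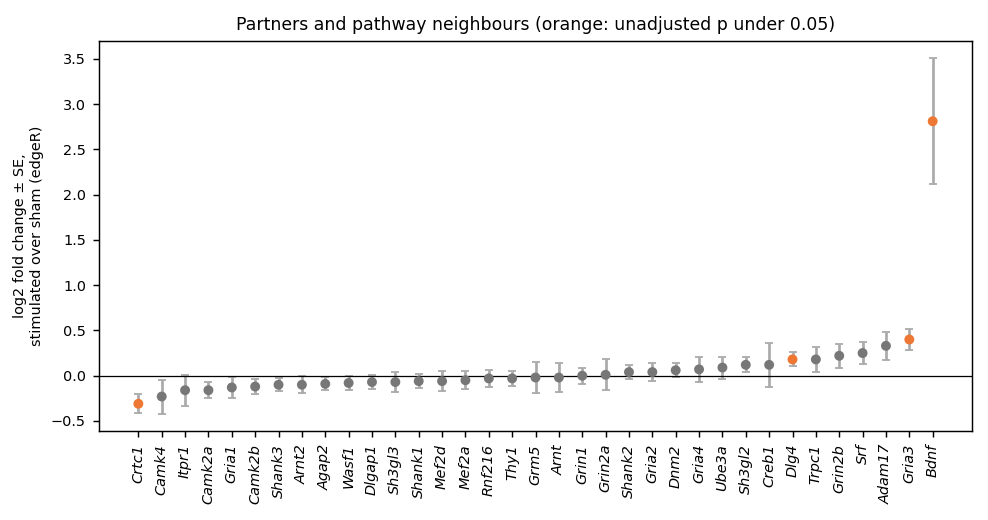
Log2 fold change with SE, stimulated over sham, of the partner genes in order of their value, without 1 gene that is not reported here, and with an unadjusted p under 0.05 in orange. All plotted values lie between -0.31 and 0.40 except Bdnf at 2.81.

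Bdnf (a target of Npas4) was counted at 4.27 to 6.75 CPM in sham rats and at 4.84, 91.8, 4.79, 71.7 and 23.3 CPM in stimulated rats 6 to 10. Its log2 fold change was 2.81 (SE 0.693, adjusted p = 0.376, edgeR quasi-likelihood test). In this row it was highest in rat 7, where Npas4 was within the sham range. The Bdnf records nearest to Nptx2 were instead slightly higher in rat 9, where Npas4 was above the sham range, than in rat 7. In rat 10, where Npas4 was highest, this row and those records were lower than in rats 7 and 9. Bdnf has several records that may share reads, so its level in this row is uncertain. The log2 fold change was 2.12 with all records of the gene summed, 2.21 without rat 7 and 1.90 with limma-voom.

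Gria3, an AMPA receptor subunit, averaged 67.7 ± 5.19 CPM over the sham group and 89.3 ± 15.4 CPM over the stimulated group (SD, n = 5). Its log2 fold change was 0.40 (SE 0.117, adjusted p = 0.39, edgeR quasi-likelihood test). Its values in rats 6 to 10 were 86.4, 111.3, 87.9, 68.1 and 92.6 CPM, and 4 of 5 were above all sham rats. Gria3 was within the sham range in rat 9, where Arc and Nptx2 were highest, and above it in rat 8, where neither of them was. Dlg4, which encodes the scaffold PSD-95, averaged 613.5 ± 26.4 CPM over the sham group and 692.8 ± 63.6 CPM over the stimulated group (SD, n = 5). It differed by 0.18 on the log2 scale (SE 0.0763, adjusted p = 0.472 in the same edgeR test), and its unadjusted p was under 0.05 in 3 of the 10 fits that left out 1 rat. Crtc1, a coactivator of CREB that moves from synapse to nucleus, was lower, at 81.3 ± 11.4 against 101 ± 8.82 CPM (SD, n = 5), or -0.31 on the log2 scale (SE 0.106, adjusted p = 0.409 in the same edgeR test).

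The 3 most counted of the other partners did not pass either threshold. On the log2 scale Camk2a differed by -0.16 (SE 0.0903), Agap2 by -0.09 (SE 0.0723) and Thy1 by -0.03 (SE 0.0813), and Thy1 changed sign without rat 7. Shank1, Shank2 and Shank3, the scaffolds bound by Homer, had log2 fold changes of -0.06, 0.04 and -0.10. The metabotropic receptor Grm5 had -0.02 (SE 0.169), and the AMPA receptor subunits Gria1, Gria2 and Gria4 had -0.13, 0.04 and 0.07.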

How the data were processed

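Messenger RNA of 10 rats, 5 sham and 5 stimulated per the treatment labels, was read in single reads of 36 cycles after oligo(dT) selection. The matrix deposited by the authors holds unnormalized counts of reads for each transcript. It was made with BWA alignment to RN4 and a custom counting program on an Ensembl annotation, per the methods, yet its rows carry RefSeq identifiers. The handling of strand and of reads shared by several transcripts is not given in the sources used here. The methods count 4 stimulated rats for this assay without naming the rat left out, so all 10 labelled rats were used and each was omitted in turn.

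Symbols came from the RefSeq table of GRCr8 by transcript identifier, by symbol and not by synonym, and were found for 57.8% of tested rows. Unaligned reads entered no library size. Following the methods, rows with a total under the 30th percentile of row totals (46 counts) were dropped. The test was the quasi-likelihood test of edgeR 4.0.16 (R 4.3.3, default settings, trimmed mean normalization, no covariate) over all 22447 tested rows with Benjamini-Hochberg adjustment, and its script was tested on simulated data with known changes. Alternatives were other normalizations, filters and tests (DESeq2 1.42.0, limma 3.58.1). The SE is the fold change divided by the root of the F statistic. Python 3.11.15 with numpy, pandas, scipy 1.17.1 and matplotlib 3.10.9 did the rest. Rats were separate animals.

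The genes and lists were chosen with earlier results of these data known. Named were the 8 genes, list genes with an unadjusted p under 0.05, the 3 most counted of the other list genes, the 5 nearest rows of Arc, Homer1, Npas4 and Nptx2 (mean count of at least 50) and Fos. The values of 1 list gene, which the list counts include, are not reported here. Further partners of the list and the markers Gfap, Aldh1l1, C1ql2 and Calb1 were named after their values were seen. The exact permutation test ran over 252 assignments.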

Additional observations from a re-analysis of the deposited data

Results flagged for a closer look

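Each group of 5 rats was searched, gene by gene, for a rat far from the rest by Dixon's ratio, which divides the distance from the highest or lowest rat to the next by the full range (critical value 0.71). Of 16 groups (8 genes, CPM), 2 exceeded it, where chance alone flags about 1 in 20 groups, or 0.8 here. Rat 9 was apart from the other stimulated rats for Arc, with 1117.7 CPM against 44.4 to 207.7 CPM, a ratio of 0.848. Rat 10 was apart from them for Npas4, with 11.9 CPM against 0.371 to 1.31 CPM, a ratio of 0.919. No sham group exceeded the critical value. On the log2 CPM scale, tried after the data were seen, 0 of the 16 groups exceeded it, with a ratio of 0.522 for Arc and 0.662 for Npas4 in the same rats, so both depend on the scale.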

How the results depend on the processing

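The direction of Arc, Homer1, Npas4, Nptx1, Nptx2 and Nptxr was kept in each alternative. Homer2 and Homer3 lie near 0, and Homer2 changed sign with upper quartile factors (-0.01), with log2 fold changes of -0.09 to 0.08 across the fits that each left out 1 rat, and Homer3 without rat 10 (-0.08 to 0.10 across these fits). Thy1 ranged from -0.08 to 0.01 in these fits.

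The count of the 8 genes with an adjusted p under 0.05 became 2 in the likelihood ratio test and 2 in the edgeR exact test, and that of partners became 1 (Bdnf) in both. Genes higher at an unadjusted p under 0.05, 5 in all, were 3 to 5 when 1 rat was left out (3 without rat 10, where Npas4 and Nptxr did not pass) and 1 (Arc) in the exact permutation test. They were 4 in DESeq2, which gave no p-value for Npas4, and 4 in limma-voom, where the unadjusted p of Npas4 was 0.143. At an unadjusted p under 0.001, 1 gene became 2 with no filter on low counts, in the likelihood ratio test, the edgeR exact test and DESeq2, 0 with robust empirical Bayes and limma-voom, and 0 to 2 when 1 rat was left out. Partners higher at an unadjusted p under 0.05, 3 in all, became 5 with library size alone and 2 to 5 when 1 rat was left out (5 without rat 6), and lower partners, 1 in all, were 1 to 3 (3 without rat 6, 2 without rat 1 or rat 8). Without rat 6, 1858 of all rows were higher and 1287 lower. Groups that do not overlap, 0 in all, became 1 (Arc) without rat 8, with a range of 0 to 1. The log2 fold changes of Arc and Nptx2 fell to 1.73 and 1.97 with limma-voom. Across all rows, 0 passed the adjusted threshold in the quasi-likelihood fits and limma-voom, 119 in the likelihood ratio test, 90 in the edgeR exact test and 33 in DESeq2. The cause of these differences was not tested.

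No paired analysis was possible because the labels number the rats from 1 to 10 without pairing sham and stimulated animals. Low counts limit Npas4 most, with a mean of 36.2 per rat.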
